A study of Mus musculus with 4 samples.

Results

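The genes described are those that copy DNA and open S phase: the MCM helicase and the factors that load it, the replicative polymerases, the clamp and flap enzymes, the suppliers of nucleotides, the histone chaperones that follow the fork, and the E2F and cyclin E genes that switch them on. They were listed by symbol, and 31 of the 34 had at least 1 named probe, 58 probes in all out of 25697 on the array. No named probe was matched to Gins1, Gins2 or Rfc3, which are not analysed here. Total RNA came from mouse embryonic fibroblasts of p19ARF-/- mice, so both groups lack this activator of p53. Cells of the NSD2 group were stably transduced with wild-type NSD2, an enzyme that dimethylates histone H3 at lysine 36, and those of the other group with a control vector. Neither group received a treatment. Each group held 2 Illumina bead arrays, and the labels do not tell if these stand for separate cultures, so the p-values measure only the spread between these arrays, which may be technical. The introduced gene itself had no named probe, so its level was not checked.

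The submitters describe their design as run in triplicate, which does not match the 2 arrays used for either group. The labels also name blood as the tissue and give an age, and neither entry describes embryonic fibroblasts. Of the fibroblast markers measured, 8 of 10 were above background on all 4 arrays, against 1 of 7 blood cell markers (Cd14) and 0 of 4 endothelial markers. Of 4 epithelial markers measured, the keratin genes Krt8, Krt18 and Krt19 were above background on all 4 arrays as well, and Cdh1 on 3 arrays. Depending on the array, 42.3% to 45.9% of probes exceeded the background, which was estimated from the lower side of each array's signal distribution. Precision is limited by the 4 arrays.

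In late G1, cyclin E with its kinase inactivates the retinoblastoma proteins, and E2F factors then transcribe most of the genes below. Origins are licensed when CDC6 and CDT1 load the MCM ring, and the ring becomes an active helicase when CDC45 and the GINS complex join it. Because these genes peak near the start of S phase, their level in a growing culture also moves with the share of cells in that phase. In bulk RNA, fewer cells in S phase and less RNA per such cell cannot be told apart.

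No replication or G1/S gene passed the test with NSD2. By limma with Benjamini-Hochberg adjustment over all probes, 0 of 31 passed a threshold of 0.05, against 3 of 16593 genes (0.0181%), and the smallest adjusted p among the 31 was 0.9997. At an unadjusted limma p under 0.05 there was 1 member of 31, Slbp, whose probe was above background on no array, against 3.91% of all genes. Which members fell under this unadjusted limit depended on the processing: Cdt1 and Pold1 without background correction, Pola1 with the authors' processed values, and Ccne2 without the second control vector array. Means were lower with NSD2 in 19 of the 31 (61.3%, against 50.7% of all genes), with a median log2 difference of -0.07 (all genes, -0.0032). Under median scaling 17 were lower (54.8%, against 46.7% of all genes), with a median of -0.0084 (all genes, 0.016). Without the second NSD2 array 14 were lower (45.2%, against 49.7% of all genes) and the median turned to 0.020. Without the first NSD2 array 71.0% were lower (against 50.9% of all genes), with a median of -0.13. Of the 31 members, 28 were above background on all 4 arrays, and their differences ran from 0.782-fold (Pold1) to 1.17-fold (Ung). The 95% interval of the difference stayed within 2-fold for 31 of 31 members, as it did for 97.8% of all genes, and for the 28 it reached no further than 0.576-fold below and 1.61-fold above. Groups of 2 against 2 cannot give a two-sided exact p below 0.333 for a single gene, so these tests rely on the variance moderated across all probes.

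**Figure D1:**
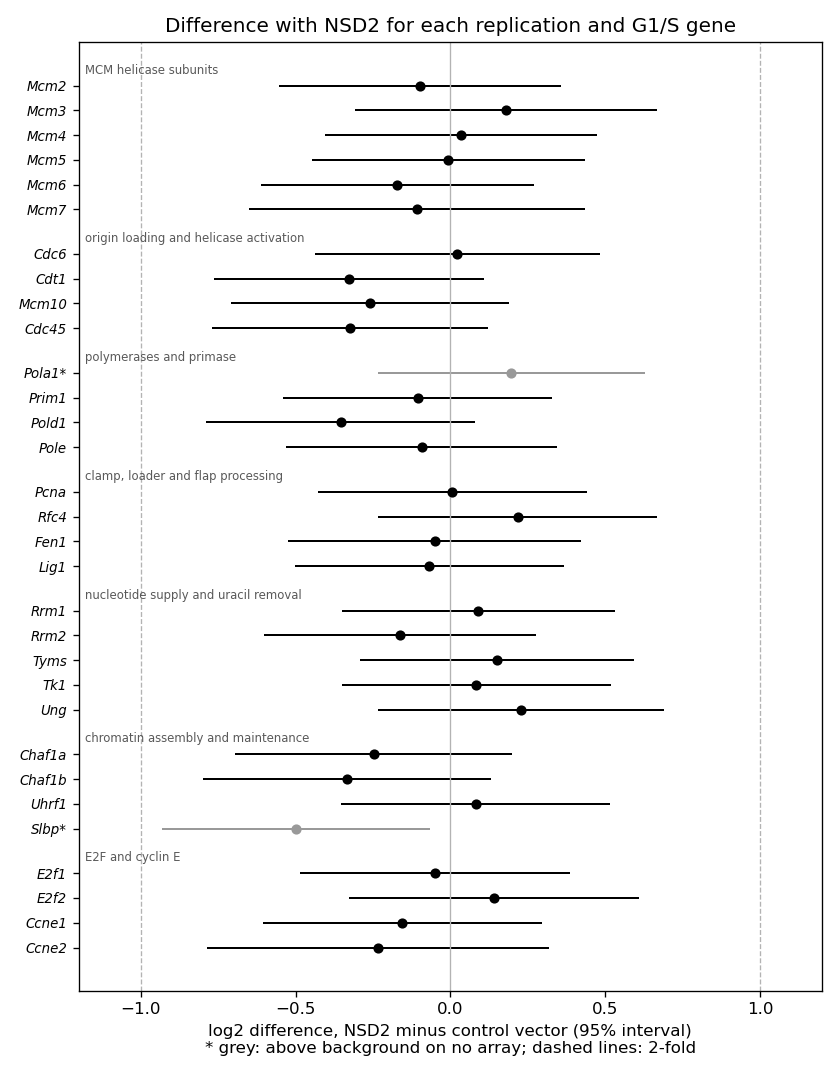
Log2 difference, NSD2 minus control vector, of each replication and G1/S gene (x axis; points, with the 95% interval of the limma fit as lines), grouped by role down the page. All 31 intervals lie inside the dashed lines at 2-fold, and only that of Slbp, drawn in grey because its probe was above background on no array, leaves out 0.

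None of the 4 E2F and cyclin E genes among the members differed between the groups beyond the spread of the arrays. E2f3 and E2f4, which are outside the member list and whose groups did not overlap, are described further below. E2f1, an activator E2F gene, had normalised log2 intensities of 10.72 and 10.58 on the NSD2 arrays, against 10.76 and 10.64 on the control vector arrays. The groups overlapped, and the log2 difference was -0.05 ± 0.20 (SE), an interval of 0.72-fold to 1.30-fold. Here and below, the SE and interval use limma's variance moderated across all probes, so they do not give a gene's own array spread. E2f2, a second activator, had 8.36 and 8.15 with NSD2 and 8.33 and 7.90 with the control vector (0.14 ± 0.22), and another of its probes gave the same 0.14. Ccne2, which encodes a cyclin E, had 8.57 and 7.99 with NSD2 against 8.86 and 8.16 with the control vector. Here the gap between arrays of 1 group, 0.58 with NSD2 and 0.69 with the control vector, exceeded the difference between the groups, -0.23 ± 0.26. Ccne1, the other cyclin E gene, was above background on 1 of the 2 NSD2 arrays and on both control vector arrays (-0.15 ± 0.21).

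E2F factors are known to bind an 8-base element, and its letters were looked for in the RefSeq promoter windows of the members (GRCm38.p6, 250 bases before to 50 after a gene's start). The 4 versions searched on both strands were TTTCCCGC, TTTCGCGC, TTTGCCGC and TTTGGCGC. Of 35 windows of 29 members, 12 held a match (34.3%), against 744 of 32851 windows of all genes (2.26%). The sequences shown are those of a pair of MCM subunit genes with overlapping matches, of the loader gene Cdc6, and of the sites in Pold1 and Cdt1, which had some of the most negative differences among members above background. They run 5′ to 3′ on the gene's strand, with the matched letters in capitals.
Mcm5 (chr8:75109259-75109508, plus strand): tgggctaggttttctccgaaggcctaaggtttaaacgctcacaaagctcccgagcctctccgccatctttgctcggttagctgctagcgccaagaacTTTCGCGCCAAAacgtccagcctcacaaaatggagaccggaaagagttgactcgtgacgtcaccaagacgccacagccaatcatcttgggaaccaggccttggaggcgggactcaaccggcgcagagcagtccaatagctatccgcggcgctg
Mcm6 (chr1:128359706-128359955, minus strand): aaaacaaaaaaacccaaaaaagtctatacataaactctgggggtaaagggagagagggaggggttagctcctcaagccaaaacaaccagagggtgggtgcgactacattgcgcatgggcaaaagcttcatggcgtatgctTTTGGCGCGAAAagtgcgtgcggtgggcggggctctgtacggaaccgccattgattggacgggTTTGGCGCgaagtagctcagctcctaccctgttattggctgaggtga
Cdc6 (chr11:98907901-98908150, plus strand): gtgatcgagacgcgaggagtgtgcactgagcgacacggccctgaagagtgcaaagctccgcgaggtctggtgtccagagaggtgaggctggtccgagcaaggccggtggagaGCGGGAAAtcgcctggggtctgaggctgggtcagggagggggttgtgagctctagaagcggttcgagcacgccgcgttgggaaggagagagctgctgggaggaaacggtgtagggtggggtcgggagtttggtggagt
Pold1 (chr7:44548766-44548795, minus strand): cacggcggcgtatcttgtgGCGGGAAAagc
Cdt1 (chr8:122568035-122568064, plus strand): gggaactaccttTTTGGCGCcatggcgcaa
In Mcm5 the 12 capital bases hold 2 matches on opposite strands that share 4 bases, the first starting 153 bases before the gene's start, and Mcm6 holds a like pair from 110 bases before it and another match 47 bases before it. The Pold1 and Cdt1 matches lie after the start, from bases 40 and 33 of the gene. Chaf1b, Cdc45 and Mcm10, also among the most negative differences above background, had a window but no match. A match describes the letters only and does not show that a factor binds there. The 11 measured members with a match had log2 differences of -0.35 to 0.20 (median -0.01, 6 lower with NSD2), and the 17 with a window but no match had -0.50 to 0.23 (median -0.10, 11 lower). The ends 0.20 (Pola1) and -0.50 (Slbp) came from probes above background on no array, and the next values were 0.18 (Mcm3) and -0.33 (Chaf1b). A difference between these sets was not tested.

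The 6 subunits of the MCM ring, the helicase that unwinds DNA ahead of the fork, had 2 higher and 4 lower means with NSD2. Mcm5 had 12.25 and 12.05 on the NSD2 arrays, against 12.24 and 12.07 on the control vector arrays, a log2 difference of -0.01 ± 0.21 with an interval of 0.73-fold to 1.35-fold. Mcm4 had 12.95 and 12.77 with NSD2 and 12.74 and 12.91 with the control vector (0.03 ± 0.21). Mcm2 had 10.58 and 10.19 with NSD2 and 10.51 and 10.47 with the control vector (-0.10 ± 0.21). The groups overlapped in each of these 3 genes. Mcm3 had 8.74 on the first NSD2 array and 8.13 on the second, against 8.26 on both control vector arrays (0.18 ± 0.23), so that its highest and lowest values both came from NSD2 cells. Mcm7 had 8.96 and 8.49 with NSD2 and 9.19 and 8.47 with the control vector (-0.11 ± 0.25), with gaps of 0.47 and 0.72 between arrays of 1 group. Mcm6 was read by 4 probes above background on all arrays, and they gave both signs. The brightest had 11.27 and 11.10 with NSD2 against 11.27 and 11.45 with the control vector (-0.17 ± 0.21), while the probe with the largest difference had 10.92 and 11.18 against 10.75 and 10.63 (0.36 ± 0.21).

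Factors that load and activate the helicase held 3 of the 5 most negative differences among members above background, none of which passed the test. Cdt1, which brings the MCM ring to origins, had 11.06 and 11.25 on the NSD2 arrays, against 11.49 and 11.47 on the control vector arrays. Both NSD2 arrays lay below both control vector arrays, with a log2 difference of -0.33 ± 0.20 and an interval of 0.59-fold to 1.08-fold. Cdc45, which joins the ring when origins fire, had 8.54 and 8.64 with NSD2 and 9.06 and 8.77 with the control vector (-0.32 ± 0.21). Mcm10, a scaffold of the firing origin, had 10.24 and 9.91 with NSD2 and 10.37 and 10.30 with the control vector (-0.26 ± 0.21). The groups did not overlap in either gene, but the second Mcm10 probe had the opposite sign, with 7.42 and 7.29 with NSD2 against 7.14 and 7.09 with the control vector (0.24 ± 0.20). Cdc6, the partner of CDT1 in loading, had 9.31 and 9.38 with NSD2, inside the 9.53 and 9.11 of the control vector arrays (0.02 ± 0.21).

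Among the polymerase genes, Pold1, the catalytic subunit of the lagging-strand polymerase delta, had the most negative difference of all members above background. It had 9.95 and 9.82 on the NSD2 arrays, against 10.28 and 10.19 on the control vector arrays, and the groups did not overlap. The log2 difference was -0.35 ± 0.20, an interval of 0.58-fold to 1.05-fold. Pole, the catalytic subunit of the leading-strand polymerase, had 7.75 and 7.64 with NSD2 and 7.69 and 7.89 with the control vector (-0.09 ± 0.20). Prim1, the primase subunit that makes the RNA primers, had 7.24 and 7.20 with NSD2 and 7.39 and 7.26 with the control vector (-0.11 ± 0.20), a small gap without overlap. Pola1, which extends those primers, was above background on no array, and no fold is given.

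For the sliding clamp, its loader and the enzymes that join Okazaki fragments, differences between the groups were no larger than the wider gap between arrays of 1 group. Pcna, the clamp that tethers polymerases to DNA, had 9.01 and 8.86 on the NSD2 arrays, against 8.88 and 8.97 on the control vector arrays, a log2 difference of 0.01 ± 0.20 with an interval of 0.74-fold to 1.35-fold. Fen1, the flap nuclease gene, had 11.60 and 11.26 with NSD2 and 11.67 and 11.29 with the control vector (-0.05 ± 0.22). Lig1, the ligase that seals the fragments, had 9.76 and 9.61 with NSD2 and 9.72 and 9.79 with the control vector (-0.07 ± 0.20). The groups overlapped in all 3 genes. Rfc4, a subunit of the clamp loader, had 8.95 and 9.19 with NSD2 and 8.73 and 8.97 with the control vector (0.22 ± 0.21), with 0.12 ± 0.22 at a second probe.

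Genes of nucleotide supply and uracil removal had higher means with NSD2 in 4 of 5 cases, and none passed the test. Tyms, thymidylate synthase, had 12.32 and 12.09 on the NSD2 arrays, against 12.14 and 11.97 on the control vector arrays (0.15 ± 0.21), while a second probe above background had 8.19 and 8.32 against 8.39 and 8.49 (-0.19 ± 0.20). Tk1, the thymidine kinase of cycling cells, had 10.76 and 10.62 with NSD2 and 10.58 and 10.64 with the control vector (0.08 ± 0.20), and a second probe above background had 7.09 and 7.47 against 7.21 and 7.46 (-0.05 ± 0.22). The subunits of ribonucleotide reductase differed in sign. Rrm1, the large subunit, had 10.96 and 11.17 with NSD2 and 11.04 and 10.91 with the control vector (0.09 ± 0.21). Rrm2, the small subunit that cells make for S phase, had 9.50 and 9.45 with NSD2 and 9.53 and 9.75 with the control vector (-0.16 ± 0.20, and -0.16 ± 0.20 at a second probe). The groups did not overlap at either Rrm2 probe, but the nearest arrays of the groups lay close together. Ung, which removes uracil from DNA, had the largest positive difference of the members above background, with 9.74 and 9.35 with NSD2 and 9.42 and 9.22 with the control vector (0.23 ± 0.22, an interval of 0.85-fold to 1.61-fold), and its groups overlapped.

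Behind the fork, Chaf1a and Chaf1b, the subunit genes of the histone chaperone CAF-1 among the members, had lower means with NSD2. Chaf1b had 9.87 and 9.54 on the NSD2 arrays, against 10.20 and 9.87 on the control vector arrays (-0.33 ± 0.22), so that the higher NSD2 array nearly met the lower control vector array. Chaf1a had 9.23 and 8.90 with NSD2 and 9.33 and 9.29 with the control vector (-0.25 ± 0.21). Neither passed the test. Uhrf1, which recruits the maintenance DNA methyltransferase to new DNA, had 12.40 and 12.28 with NSD2 and 12.20 and 12.31 with the control vector (0.08 ± 0.20). Slbp, which encodes the protein that binds the stem-loop of histone mRNAs, was measured by a single probe above background on no array, so its level and its fold are not read here.

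**Figure D2:**
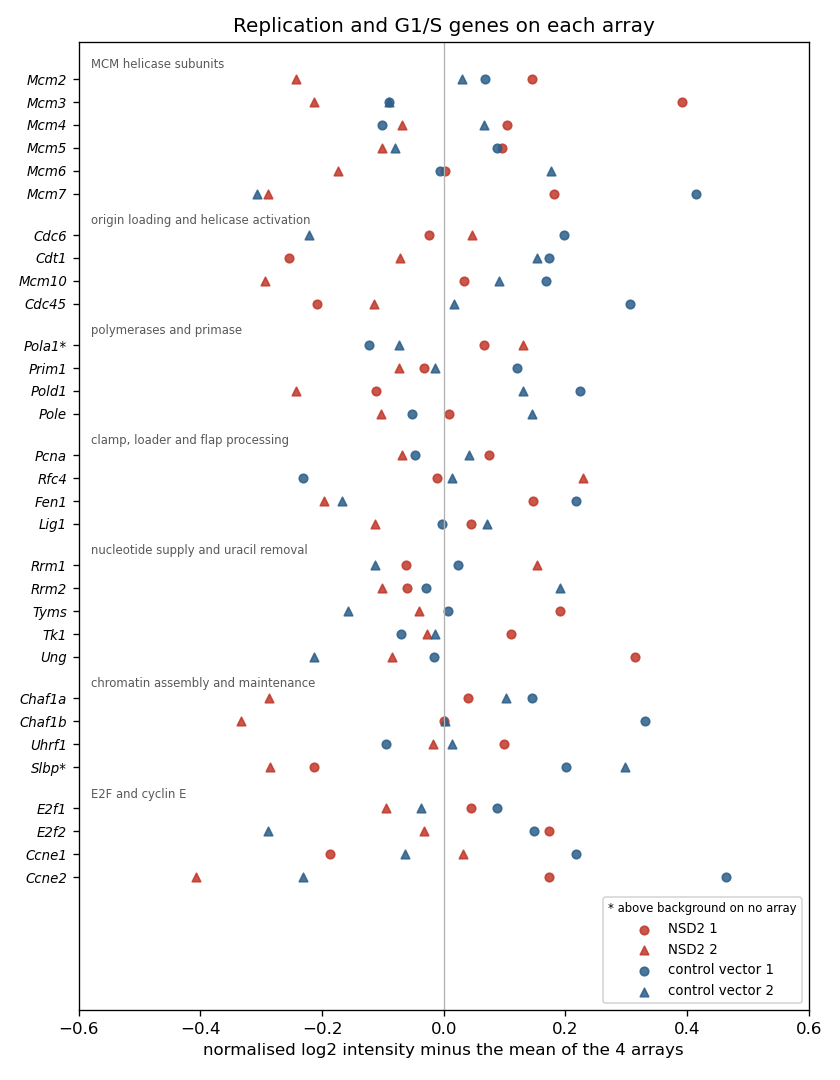
Normalised log2 intensity of each replication and G1/S gene on each array, minus that gene's mean over the 4 arrays (x axis), grouped by role down the page; red marks are NSD2 arrays and blue marks control vector arrays, circles replicate 1 and triangles replicate 2. Red marks lie left of both blue marks for 9 of the 31 genes, among them Pold1, Cdt1 and Cdc45, and both red marks lie right of them for 1, Pola1.

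Across all roles, both NSD2 arrays lay below both control vector arrays in 9 of 31 members (29.0%, against 16.2% of all genes). They lay above both in 1 of 31 (3.23%, against 15.8% of all genes). Counting either direction, the groups did not overlap in 32.0% of all genes. The 9 were Cdt1, Mcm10, Cdc45, Prim1, Pold1, Rrm2, Chaf1a, Chaf1b and Slbp, and the 1 was Pola1; Slbp and Pola1 were above background on no array. These counts depended on how the arrays were scaled. When arrays were scaled to 1 median in place of quantile normalization, 3 members lay below (Prim1, Chaf1b and Slbp, 9.68%, against 11.6% of all genes) and 4 above (Mcm3, Pola1, Ung and E2f2, 12.9%, against 12.9%). With the authors' processed values, 7 lay below (22.6%, against 15.0% of all genes) and 1 above (3.23%, against 14.1%). The mean difference of Pold1 was -0.29 under median scaling, where its groups overlapped, and -0.39 with the authors' values. Cdt1 (-0.27 and -0.36) and Cdc45 (-0.25 and -0.38) kept their direction in the same way. These are rescalings of the same 4 arrays, so a kept direction is no independent support.

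**Figure D3:**
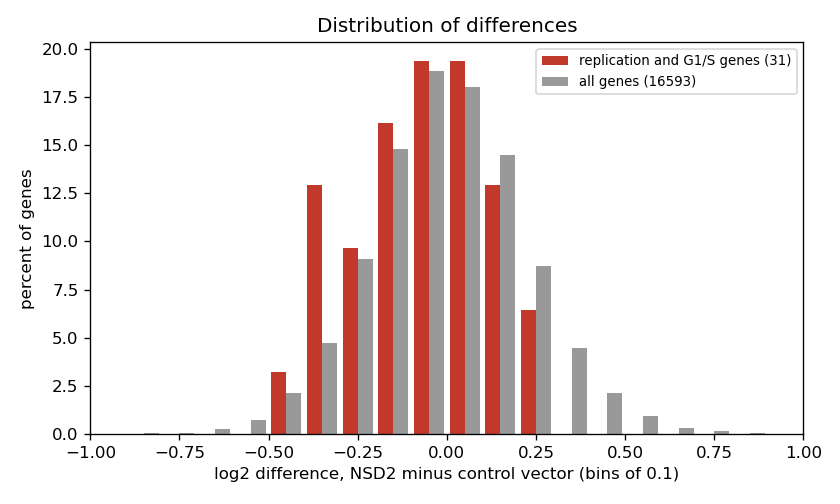
Distribution of the log2 differences, NSD2 minus control vector (x axis, bins of 0.1), as percent of the 31 replication and G1/S genes (red) and of all 16593 genes (grey); the axis leaves out differences beyond 1. The red bars centre near the grey ones, with medians of -0.07 and -0.0032, and reach from -0.50 (Slbp, above background on no array) to 0.23 (Ung).

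Gaps between arrays of 1 group were set beside the differences between the groups, and the share was near that of all genes. In 26 of the 31 members the larger gap between arrays of 1 group exceeded the difference between NSD2 and control vector means (83.9%, against 79.6% of all genes). That count sets the larger of 2 gaps between single arrays against a difference of means, so a high share does not describe these genes in particular. In 14 of 31 the difference had opposite signs in replicate 1 and replicate 2 (45.2%, against 46.1% of all genes), including all 6 MCM subunits. For Mcm5 and Mcm6 the replicate 1 difference was only 0.0078 and 0.0074, and another Mcm6 probe gave 0.16 and 0.56 in replicates 1 and 2. After quantile normalization, replicate 1 was above replicate 2 in both groups for 15 of 31 members (48.4%, against 29.8% of all genes) and below it in both for 2 (6.45%, against 28.5%). Mcm7 and Ccne2 had the widest such gaps. The arrays also differed in brightness by number, with a 75th percentile of the signal of 345 and 357 on the arrays numbered 1 (NSD2 and control vector) and of 491 and 490 on those numbered 2. Under median scaling the counts turned round, to 1 member higher on replicate 1 in both groups (3.23%, against 18.7% of all genes) and 23 higher on replicate 2 (74.2%, against 48.3%), and all genes shifted the same way, so no direction between the replicate numbers is given for these genes. The part of array brightness in these gaps was not tested.

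**Figure D4:**
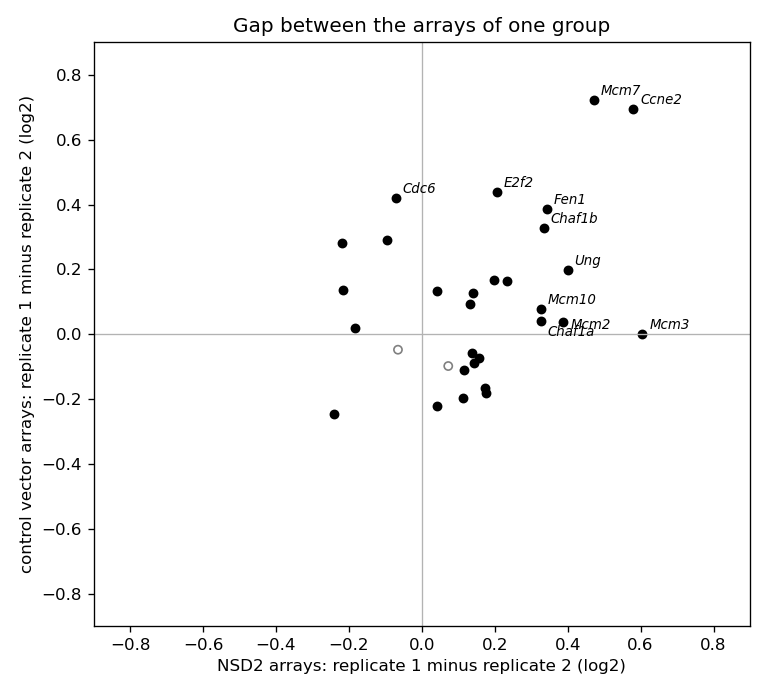
Gap between replicate 1 and replicate 2 in log2 intensity after quantile normalization, on the NSD2 arrays (x axis) and on the control vector arrays (y axis), for each replication and G1/S gene; open circles are genes above background on no array. Of the 31 genes, 15 lie at upper right, led by Mcm7 (0.47 and 0.72) and Ccne2 (0.58 and 0.69), and 2 at lower left; under median scaling these counts were 1 and 23.

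Other genes of replication and S phase, a list of 62 drawn up, like the members, with earlier results of these data known, were set beside the members. Of the 58 measured, 0 passed limma with Benjamini-Hochberg adjustment and 1 had an unadjusted p under 0.05 (Orc2, above background on 1 array). Means were higher with NSD2 in 35 and lower in 23, with a median log2 difference of 0.02. Of those above background on all arrays, the largest differences were in E2f4 (0.40 ± 0.21), E2f3, an activator E2F (-0.31 ± 0.20), and Dbf4, the regulator of the kinase that fires origins (0.31 ± 0.23). E2f4 had 8.71 and 8.55 on the NSD2 arrays, against 8.13 and 8.32 on the control vector arrays, and E2f3 had 9.43 and 9.23 against 9.61 and 9.67. Neither pair of groups overlapped. Of 20 measured mitotic genes, 0 passed and 0 had an unadjusted p under 0.05, with 11 higher and 9 lower means and a median of 0.04. The lower share among the 31 members was not tested against these lists.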

How the data were processed

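Total RNA was measured on 4 Illumina bead arrays. Per the labels, RNA was purified on columns, amplified and biotin-labelled. Per the file headers, the deposited values used are average bead signals, an intensity on a linear scale, neither normalized nor background-subtracted. A second deposited table holds the authors' processed intensity, made by steps not given in the sources used here. Probes were named from the platform annotation (23978 with 1 gene symbol, 1719 unnamed here), and symbols were checked against RefSeq (GRCm38.p6, 23962 matched, 0 changed).

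Signals were corrected with normexp (offset 50), quantile-normalized and compared as log2 values, NSD2 minus control vector, with limma 3.58.1 in R 4.3.3 (lmFit, eBayes, two-sided, Benjamini-Hochberg over all 25697 probes, threshold 0.05). The offset understates differences of dim probes. A gene is given by its probe with the highest mean. Without detection p-values, a probe was above background past the upper 5% point of the lower side of the log2 signal mirrored about its mode (thresholds 178 to 219). No probe was filtered out. The fit was tested on simulated data. Every measured member is named. Members and lists were chosen with earlier results of these data known. Alternatives were other background corrections, scalings, the authors' table (values under 16 raised to 16 before log2), a filter on dim probes, other moderation, the replicate number as a term, another probe, and leaving out each array.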

Additional observations from a re-analysis of the deposited data

How the results depend on the processing

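The count of 0 replication and G1/S genes past the limma threshold held under all 13 alternatives run; their smallest adjusted p was 0.450, when the fit took the replicate number as a block. The 3 genes changed over the whole array (Gpc3, Hoxd8 and Mest) became 37 with the replicate block, 10 with a robust trended variance, 1 over probes above background on at least 2 arrays, and 0 with an offset of 16, median scaling or the authors' processed values (678, 210 and 1012 genes at an unadjusted limma p under 0.05). They were 4 to 12 when 1 array was left out (11 without control vector 1, 12 without control vector 2, 5 without NSD2 2; a group left with 1 array borrows its spread from the other), and 4 with normexp fitted by maximum likelihood, chosen after seeing the data. Same-numbered arrays deviated together (correlation 0.52 across 9779 probes, which are not independent), but with 2 pairs they share only a number. Lower means were found in 14 members without NSD2 2 and in 22 without NSD2 1, against 19, and the median was 0.020 without NSD2 2 and -0.13 without NSD2 1, against -0.07.

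Of 400 recomputed differences of single members, 372 kept their sign and 28, in 17 genes, turned, none past the threshold in either. The replicate block, the robust trended variance and the filter on dim probes leave a member's difference as it was, so no sign could turn there. The same holds for another probe where a member had only 1. The count of kept signs is therefore no measure of stability. Median scaling gave 0.026 for Mcm5 and 0.0071 for Fen1, the authors' values -0.012 for Mcm4, and the most variable probe 0.10 for Mcm6, -0.29 for Uhrf1 and -0.060 for Tyms. Leaving out 1 array gave -0.29 to 0.10 for Mcm2, -0.12 to 0.48 for Mcm3, -0.052 to 0.12 for Mcm4, -0.11 to 0.092 for Mcm5, -0.47 to 0.25 for Mcm7, -0.19 to 0.23 for Cdc6, -0.065 to 0.078 for Pcna, -0.24 to 0.14 for Fen1, -0.15 to 0.011 for Lig1, -0.19 to 0.0054 for Pole, -0.018 to 0.20 for Rrm1, -0.12 to 0.020 for E2f1, -0.077 to 0.36 for E2f2 and -0.58 to 0.11 for Ccne2. The cause was not tested. Slbp gave no difference from the authors' table because a floor of 16, set here before taking log2, lay above its value on all 4 arrays, and Slbp and Pola1 had none over probes above background on at least 2 arrays. Low signal over background limits both genes.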
